A study of Mus musculus with 23 samples.

Results

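The genes described here are 10 genes of fatty acid synthesis: Fasn, Acaca, Acacb, Acly, Scd1, Scd2, Elovl6, Me1, Srebf1 and Thrsp. They were chosen by name, as every spot whose gene name in the scanner files is one of these symbols, and not by any measured value. The array carried 17 probes for them among 55681 probes, and 14 of the 17 were measured above background, so that 10 of 10 genes had at least 1 measured probe. Transcript levels were read in scrapings of the small intestine of adult male C57BL/6J mice, a common inbred laboratory strain, with 1 array for each of 23 mice. The HF-Q mice (11) ate a high-fat diet that contained 0.33% quercetin by weight, a plant flavonol, for 12 weeks, and the HF mice (12) ate the high-fat diet without it for as long. The authors had removed 1 more HF-Q mouse because of an abscess. All mice had 3 weeks on a normal-fat diet beforehand and a fast of 2 to 4 hours before tissue was taken, and both diets were high in fat, so no value here shows what the fat itself did. On every array the Cy5 dye marked the RNA of 1 mouse and the Cy3 dye an equimolar pool of all mice, so the values are log2 ratios of a mouse to the pool, and the dyes were not swapped.

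Cells make fatty acids from acetyl-CoA in the cytosol. ATP citrate lyase (Acly) releases acetyl-CoA from citrate, acetyl-CoA carboxylase (Acaca, Acacb) turns it into malonyl-CoA, and fatty acid synthase (Fasn) joins these units into palmitate with NADPH that malic enzyme (Me1) and the pentose phosphate pathway supply. Elovl6 lengthens palmitate, Scd1 and Scd2 introduce a double bond, and in liver the transcription factor SREBP-1 (Srebf1) and the nuclear protein Spot 14 (Thrsp) are known to promote the expression or activity of these enzymes, while in the small intestine much of the fatty acid that enterocytes handle is absorbed from food.

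The tissue label held for enterocytes: 12 of 12 enterocyte markers were above background on all 23 arrays. One protocol field names liver as the source of the RNA, against the other labels. Among markers of hepatocytes, 0 arrays had Ahsg or Mup3 above background, 2 had Fgb, 2 had Hpx and 11 had Alb, while all 23 had Fga, Apoh, Cyp2e1, Serpina1a and Tat. White fat, a tissue with high levels of the same enzymes, was looked for with 15 adipocyte markers. Of these, 9 were above background on all 23 arrays: Cfd, Retn, Cidec, Lipe, Fabp4, Plin4, Pck1, Lpl and Car3. Nnat was above background on 20 arrays, Adipoq on 13, Plin1 and Lep on 8 each, Slc36a2 on 2 and Mest on 1. Ucp1, which marks brown fat, was above background on 0. The scrapings varied in other tissues: the pancreatic acinar score, the mean log2 ratio of 13 markers, had a range of -3.24 to 2.13 in HF-Q mice and of -3.14 to 1.73 in HF mice. In bulk tissue, fewer cells of a type and less RNA per cell cannot be told apart. The arrays lay on 3 slides, each with both diets, and had 27085 to 31525 probes above background.

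The question put to the HF-Q and HF mice was how quercetin in the diet affects intestinal transcripts. Me1 was the member with the largest difference, lower with quercetin on each of its 3 probes, at 0.71-fold on the brightest. The other 9 genes were close to the level of HF mice or varied as much within a diet as between diets. Acacb was at 0.87-fold and Scd2 at 1.19-fold, and Fasn, Acaca, Acly, Scd1, Elovl6, Srebf1 and Thrsp lay between 0.952-fold and 1.05-fold by their brightest probe. No member passed the test over all probes: limma called 0 of 14 member probes at adjusted p under 0.05, against a background of 0% of 29249 probes. At an unadjusted p under 0.05 limma marked 3 of 14 member probes, all 3 of them of Me1, against a background of 4.36% of all probes (2.35% in the lower direction). Probes of a gene are not independent, and as genes this was 1 of 10 members against 4.51% of 21477 genes. By sign, 12 of 14 probes and 8 of 10 genes were lower with quercetin. The median log2 fold change of the 10 genes was -0.038, against -0.0038 over all measured genes, of which 48.1% were higher. For 8 of 10 members the 95% interval lay within 1.5-fold in either direction; those of Me1 and Scd2 were wider.

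**Figure D1:**
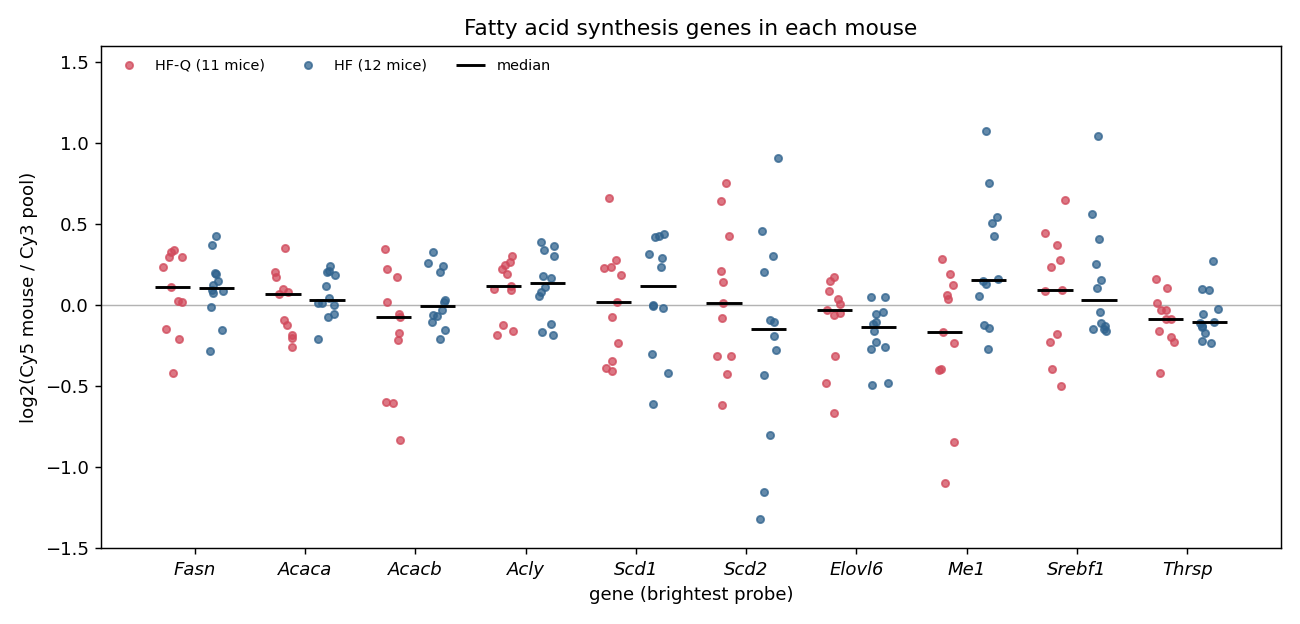
Each point is the log2 ratio of Cy5 (the mouse) to Cy3 (the pool) of 1 mouse, for the brightest probe of each gene on the x axis, with HF-Q mice in red left of HF mice in blue and a black bar at the median of each diet. Me1 reached -1.10 in HF-Q mice and 1.08 in HF mice, Scd2 spread most among HF mice, and all 10 genes overlap between the diets.

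Of the genes that supply acetyl-CoA and NADPH, Me1 makes NADPH by turning malate into pyruvate. Its 3 probes are printed because they are separate measurements of the member that differed most; the first 30 bases of each are given, in lower case throughout, from the scanner files (build mm9, chromosome 9, minus strand, at 86475077 to 86475136, 86475215 to 86475274 and 86480571 to 86480630 for the whole probes of 60 bases).
Me1 probe 1: cctaatgacaacttgtgactaacggtttct
Me1 probe 2: ttctgtgtatctagagactcctgactttga
Me1 probe 3: aggccggctctatcctcctttgaataccat
The longest run of bases that any pair of these probes shared was 7, so none reads the same stretch as another. Over the mice, probe 1 correlated with probe 2 at r = 0.967 and with probe 3 at r = 0.884, as a description of a single gene measured at 3 places.

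On probe 1, the brightest, Me1 had log2 ratios with a lowest value of -1.10, a median of -0.165 and a highest of 0.282 in HF-Q mice, against a lowest of -0.271, a median of 0.155 and a highest of 1.08 in HF mice. The diets overlapped, with 5 HF mice above the highest HF-Q mouse and 4 HF-Q mice below the lowest HF mouse, and 9 of 11 HF-Q mice were below the HF median. The log2 fold change was -0.495 ± 0.16 (SE; 0.71-fold, 95% interval 0.563 to 0.894), with an unadjusted p of 0.00526 and an adjusted p of 0.954 in limma. A block for the slide gave -0.511, and the 3 slides alone gave -0.439, -0.434 and -0.648, so each slide gave the same sign. Probe 2 gave -0.446 ± 0.19 (0.734-fold) and probe 3 gave -0.429 ± 0.18 (0.743-fold), with unadjusted p of 0.0237 and 0.0285 in limma and an adjusted p of 0.954 for both. HF-Q mouse 4 was lowest and HF mouse 3 highest on all 3 probes. Leaving out each mouse in turn kept probe 1 between -0.545 and -0.407.

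Markers of other cells also differed between the diets, none past the test. T cell markers were higher with quercetin in 6 of 8 genes, beside 48.1% of all genes. Of the 8, 5 had an unadjusted p under 0.05 in limma, beside 4.51% of all genes. Their score had ranges of -0.125 to 0.428 in HF-Q mice and -0.318 to 0.195 in HF mice. It had r = -0.583 with Me1 over the 23 mice (rho = -0.703, permutation adjusted p = 0.0243). The mean score was 0.183 higher in HF-Q than in HF mice while Me1 was lower, so this r includes the diet difference. The r within each diet was not taken. The part of the T cell markers in the Me1 difference was not tested. Distal small intestine markers were higher in 5 of 8 genes, and 3 of the 8 had an unadjusted p under 0.05 in limma. These were Fgf15 (log2 fold change -0.771), Cubn (-0.488) and Slc51b (0.309). Pancreatic acinar markers were lower with quercetin in 13 of 13 genes, with a median score of -1.44 in HF-Q mice and -0.95 in HF mice, and smooth muscle markers in 8 of 8, with a median score of -0.556 in HF-Q mice and -0.042 in HF mice; 0 of these 13 and 0 of these 8 had an unadjusted p under 0.05 in limma. With both scores in the fit, the Me1 difference was -0.52 (limma unadjusted p = 0.00623, adjusted p = 0.306). The unadjusted p was 0.00526 without the scores, so the lower adjusted p came without a smaller unadjusted p for Me1. With the adipocyte score the Me1 difference was -0.499 (limma adjusted p = 0.878). Over the 23 mice Me1 had r = -0.0497 with the acinar score, 0.135 with smooth muscle and 0.221 with adipocyte markers. Fits with scores so weakly related to Me1 could move its difference little. The T cell score was not fitted, so the part of cell composition was not tested.

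Acly has 2 measured probes, which did not follow each other. They are printed because the results on Acly below rest on probe 1 alone (build mm9, chromosome 11, minus strand, whole probes at 100337674 to 100337733 and 100365518 to 100365577, first 30 bases shown in lower case).
Acly probe 1: gccacctcagtctcttctctgtgttatcta
Acly probe 2: tctgagtcccgagctgatgaagtggcacct
The scanner files annotate them to different transcripts of the gene, and probe 2 lies on the 5′ side. Probe 1, the brighter, had a lowest value of -0.183, a median of 0.121 and a highest of 0.301 in HF-Q mice, against a lowest of -0.182, a median of 0.139 and a highest of 0.389 in HF mice. The log2 fold changes were -0.029 ± 0.077 on probe 1 and -0.061 ± 0.054 on probe 2 (limma adjusted p = 0.979 and 0.954). The diets covered nearly the same range on probe 1, with 4 HF mice above the highest HF-Q mouse. Over the 23 mice the probes correlated at r = 0.0193 (rho = 0.102, permutation p = 0.931, adjusted p = 0.931 over 5 probe pairs), and within the slides at 0.457, 0.0957 and -0.242. What is said of Acly over the mice therefore holds for probe 1 alone. Why the probes differ was not tested.

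The carboxylases and the synthase came next. Acaca encodes the cytosolic acetyl-CoA carboxylase, the committed step of the pathway, and has 4 probes, of which probes 1 and 2 were measured. The last 30 bases of these are printed, since both read nearly the same stretch; capitals mark what follows the run of 55 bases that the probes share (build mm9, chromosome 11, plus strand, whole probes at 84215093 to 84215152 and 84215094 to 84215153).
Acaca probe 1: tgttgaaataaacctccacatttgtaGAAG
Acaca probe 2: gttgaaataaacctccacatttgtaAAAAA
The probes are nearly a repeat of each other and correlated at r = 0.943 over the mice, with a mean absolute difference of 0.0468. On probe 1 the lowest value was -0.257, the median 0.0715 and the highest 0.354 in HF-Q mice, against -0.209, 0.029 and 0.241 in HF mice. HF-Q mice held both the lowest and the highest value, and the log2 fold changes were -0.046 ± 0.069 on probe 1 and -0.043 ± 0.070 on probe 2 (limma adjusted p = 0.964 and 0.968). Acaca probe 3 was well above background on 1 HF-Q and 3 HF arrays and probe 4 on 0 HF-Q arrays and 1 HF array, so neither was tested.

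Acacb encodes the carboxylase at the outer mitochondrial membrane, whose malonyl-CoA restrains the entry of fatty acids into mitochondria. Its log2 ratios had a lowest value of -0.831, a median of -0.0749 and a highest of 0.344 in HF-Q mice, against -0.208, -0.00668 and 0.328 in HF mice. The ranges shared their upper part, while 4 HF-Q mice lay below the lowest HF mouse, and the SD was 0.376 in HF-Q mice and 0.177 in HF mice. The log2 fold change was -0.201 ± 0.11 (95% interval of the fold 0.74 to 1.02; unadjusted p = 0.0892, limma adjusted p = 0.954), with -0.287, -0.0726 and -0.237 within the slides. Acacb probe 2 was above background on 1 HF-Q array and 0 HF arrays and was not tested.

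Fasn, the multienzyme that makes palmitate, had a lowest value of -0.417, a median of 0.11 and a highest of 0.343 in HF-Q mice, against -0.284, 0.108 and 0.425 in HF mice. The medians nearly coincided and the ranges overlapped almost wholly. The log2 fold change was -0.026 ± 0.090 (0.982-fold, 95% interval 0.864 to 1.12; limma adjusted p = 0.985), and it was -0.0898, -0.132 and 0.0965 within the slides, so the sign was not the same on each.

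None of the 3 genes that modify palmitate passed the test between the diets. Scd1 and Scd2 encode stearoyl-CoA desaturases and are close copies, so their probes are printed around the longest run that they share, 6 bases in capitals (build mm9, chromosome 19, minus strand at 44469387 to 44469446 for Scd1 and plus strand at 44381024 to 44381083 for Scd2; 30 of 60 bases shown).
Scd1 probe 1: atctcaacagtgtgaaTTAAGTgtccatag
Scd2 probe 1: agaggagtatTTAAGTcctgcacatttttg
Scd1 had a lowest value of -0.403, a median of 0.0188 and a highest of 0.659 in HF-Q mice, against -0.609, 0.118 and 0.437 in HF mice. Its log2 fold change was -0.050 ± 0.14 (limma adjusted p = 0.979), with 0.0817, 0.0164 and -0.299 within the slides. Scd2, the form that predominates in brain, had a lowest value of -0.616, a median of 0.0118 and a highest of 0.752 in HF-Q mice, against -1.32, -0.146 and 0.91 in HF mice. HF mice held both ends of its range, with 3 of them below the lowest HF-Q mouse, and its SD of 0.443 in HF-Q mice and 0.652 in HF mice was the largest of the 10 genes by brightest probe. Its log2 fold change was 0.248 ± 0.22 (95% interval of the fold 0.871 to 1.62; limma adjusted p = 0.954), with 0.664, 0.316 and -0.286 within the slides, so the third slide had the opposite sign. It was 0.147 without HF mouse 1, 0.162 without HF mouse 3, and 0.42 (limma adjusted p = 0.388) with scores of acinar and smooth muscle markers in the fit. Elovl6, which extends palmitate to stearate, had a lowest value of -0.664, a median of -0.0293 and a highest of 0.171 in HF-Q mice, against -0.494, -0.137 and 0.0488 in HF mice. The 3 highest mice all ate quercetin, as did the lowest, and the log2 fold change was 0.072 ± 0.090 (limma adjusted p = 0.958), with -0.0428, -0.107 and 0.346 within the slides.

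Of the regulators, Srebf1 had a lowest value of -0.497, a median of 0.0955 and a highest of 0.649 in HF-Q mice, against -0.158, 0.0324 and 1.04 in HF mice. The lowest 4 mice were HF-Q mice and the highest was an HF mouse. Its log2 fold change was -0.071 ± 0.14 (limma adjusted p = 0.975) and was 0.359, -0.279 and -0.339 within the slides, and leaving out each mouse gave -0.128 to 0.01, with 0.01 when HF mouse 1, the highest, was left out. Thrsp had a lowest value of -0.42, a median of -0.0826 and a highest of 0.165 in HF-Q mice, against -0.233, -0.105 and 0.27 in HF mice. Those ranges overlapped widely, and the log2 fold change was -0.027 ± 0.065 (limma adjusted p = 0.979), with -0.0385, -0.144 and 0.095 within the slides.

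**Figure D2:**
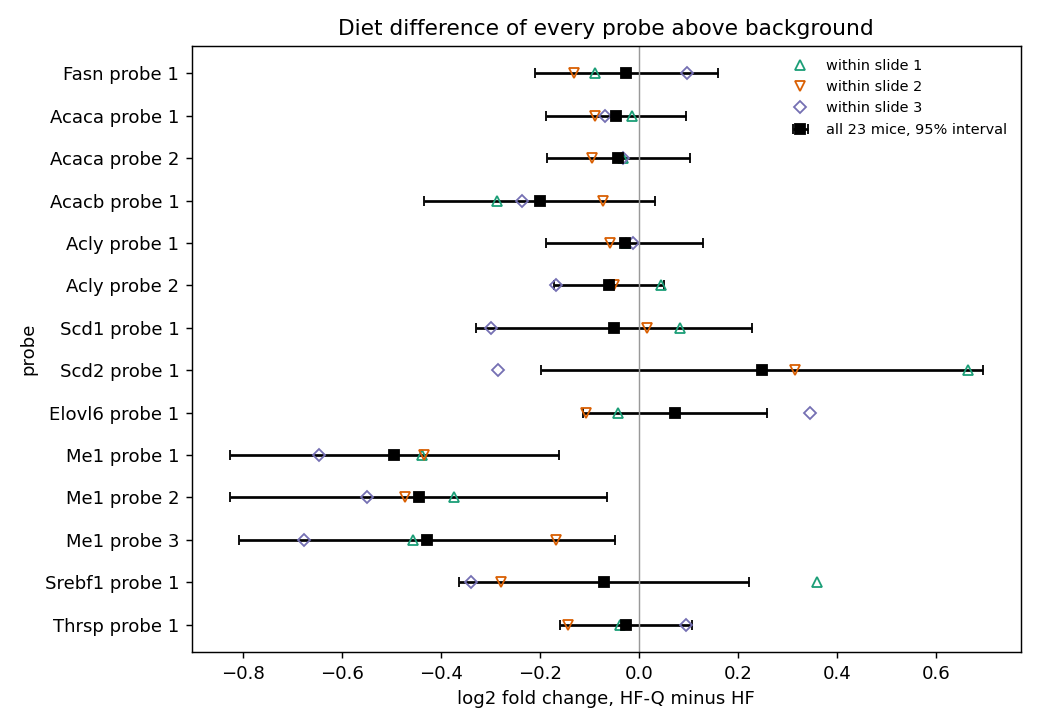
Log2 fold change of HF-Q minus HF for the 14 measured probes, with black squares and 95% intervals over the 23 mice and open symbols for the value within each of 3 slides. The Me1 probes are at -0.495, -0.446 and -0.429 with every slide below 0, whereas Scd2, Elovl6, Srebf1, Scd1, Fasn and Thrsp have slides on both sides of 0, as does Acly probe 2.

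The neighbouring pathways were examined with 6 lists that hold 81 distinct measured genes. None of these passed the test (0 of 81 at adjusted p under 0.05 in limma), and 4 of 81 had an unadjusted p under 0.05, beside 4.51% of all genes. Among 14 measured genes of acetyl-CoA and NADPH supply, 7 were higher and 7 lower, with a median log2 fold change of 0.0023. The highest were Pgls, an enzyme of the pentose phosphate pathway (0.087 ± 0.042), and G6pdx, its first enzyme (0.072 ± 0.073), and the lowest were the acetyl-CoA synthetase Acss1 (-0.138 ± 0.12) and the cytosolic isocitrate dehydrogenase Idh1 (-0.085 ± 0.097). Me1 itself stood at -0.495, and the contrast with these other NADPH sources was not tested.

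Among 14 of 18 measured genes of elongation and desaturation, 9 were higher and 5 lower (median 0.028). Hacd2, a dehydratase of the elongation cycle (0.17 ± 0.065), and the delta-5 desaturase Fads1 (0.136 ± 0.12) were highest, and Fads3 (-0.052 ± 0.057) and Degs1, a ceramide desaturase (-0.028 ± 0.074), were lowest. Mitochondrial fatty acid synthesis, a separate pathway that serves lipoic acid, had 4 of 9 measured genes higher and 5 lower (median -0.0031), with Mecr (0.104 ± 0.055) and Lipt2 (0.068 ± 0.094) highest and Cbr4 (-0.033 ± 0.045) and Acsf3 (-0.027 ± 0.054) lowest. Of 20 measured regulators of lipogenesis, 12 were higher and 8 lower (median 0.016). Insig2, which holds SREBP in the endoplasmic reticulum (0.149 ± 0.083), and Mlx (0.124 ± 0.088) were highest, and Mlxipl, the carbohydrate-responsive factor ChREBP that pairs with Mlx (-0.117 ± 0.090), and Insig1 (-0.109 ± 0.13) were lowest.

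Fatty acid activation and glycerolipid synthesis had 5 of 16 genes higher and 11 lower (median -0.059), beside 48.1% higher among all genes. Agpat2 (0.080 ± 0.077) and the monoacylglycerol acyltransferase Mogat2, which rebuilds absorbed fat in enterocytes (0.070 ± 0.082), were highest, and the acyl-CoA synthetases Acsl6 (-0.375 ± 0.17) and Acsl3 (-0.152 ± 0.12) were lowest. Of 9 targets of LXR, the oxysterol receptor that induces Srebf1, 3 were higher and 6 lower (median -0.025). Smpdl3a (0.149 ± 0.075) and Ttc39b (0.071 ± 0.068) were highest, and the cholesterol exporter Abca1 (-0.253 ± 0.11) and Mylip, a ubiquitin ligase (-0.173 ± 0.093), were lowest.

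The members did not vary as a single group over the 23 mice. The 10 genes form 45 pairs, tested by permutation of Pearson's r with 100000 resamples and Benjamini-Hochberg adjustment over the 45. Of these, 5 passed at adjusted p under 0.05, or 11.1%, and all 5 were positive; the median r of the 45 was 0.105. As a background, 2.75% of the pairs of a member with any other measured gene reached the smallest called absolute r of 0.659. That share was 11.5% for Acly and 0.0233% for Thrsp, so a high r was common for Acly and rare for Thrsp.

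By Pearson's r, the passing pairs joined the enzymes from citrate to palmitate and Scd2 in a chain, and Scd1 with Me1. Acly and Scd2 had r = 0.686 (rho = 0.724), Fasn and Acaca r = 0.683 (rho = 0.629), Acaca and Acly r = 0.682 (rho = 0.728), Scd1 and Me1 r = 0.68 (rho = 0.645), and Acaca and Acacb r = 0.659 (rho = 0.707), each with a permutation adjusted p of 0.00459. Without the 2 mice farthest from the median of the first gene these were 0.606, 0.536, 0.635, 0.762 and 0.543. Within the slides, Scd1 and Me1 had 0.251, 0.771 and 0.861, and the other 4 pairs were between 0.478 and 0.889. Within HF-Q mice 1 of the 5 passed (Acaca and Acly, r = 0.85), and within HF mice 2 did (Acly and Scd2, r = 0.778; Scd1 and Me1, r = 0.795), with all 5 positive in each diet. By rho, 11 of the 45 pairs passed, these 5 among them, and more pairs of the chain's genes were included. Acacb and Acly (rho = 0.59) and Acaca and Scd2 (rho = 0.596) had a permutation adjusted p of 0.0236. For Fasn with Acly (rho = 0.55) and with Acacb (rho = 0.534) it was 0.0343 and 0.0404.

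The most negative pairs were Acly and Srebf1 (r = -0.532, rho = -0.392, permutation adjusted p = 0.0534), Scd2 and Thrsp (r = -0.493, rho = -0.444, adjusted p = 0.0664) and Acly and Scd1 (r = -0.358, rho = -0.273, adjusted p = 0.247). Without the 2 farthest mice these were -0.52, -0.225 and -0.272, and within the slides -0.75, -0.539 and -0.602 for Acly and Srebf1. None of them passed over the 23 mice, but 2 of them did in other settings. Acly and Srebf1 passed with diet and slide means removed (r = -0.61, permutation adjusted p = 0.0118) and in 6 of the 23 settings with 1 mouse left out. Scd2 and Thrsp passed within HF mice (r = -0.873, permutation adjusted p = 0.0081), with r = 0.0483 within HF-Q mice, and in the authors' log2 table (r = -0.619, permutation adjusted p = 0.0179). When arrays were centred on their median in place of loess, Acly had r = 0.0875 with Srebf1 and 0.0984 with Scd1, and Scd2 and Thrsp had -0.255. Srebf1, which in liver drives the transcription of Fasn and Acaca, had r = -0.0412 with Fasn (rho = -0.123, permutation adjusted p = 0.871) over these mice. Its higher values of r were with Scd1 (r = 0.522, permutation adjusted p = 0.0595) and Me1 (r = 0.468, permutation adjusted p = 0.0807). By rho both pairs passed (rho = 0.548 with Scd1 and 0.556 with Me1, permutation adjusted p = 0.0343 for each).

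**Figure D3:**
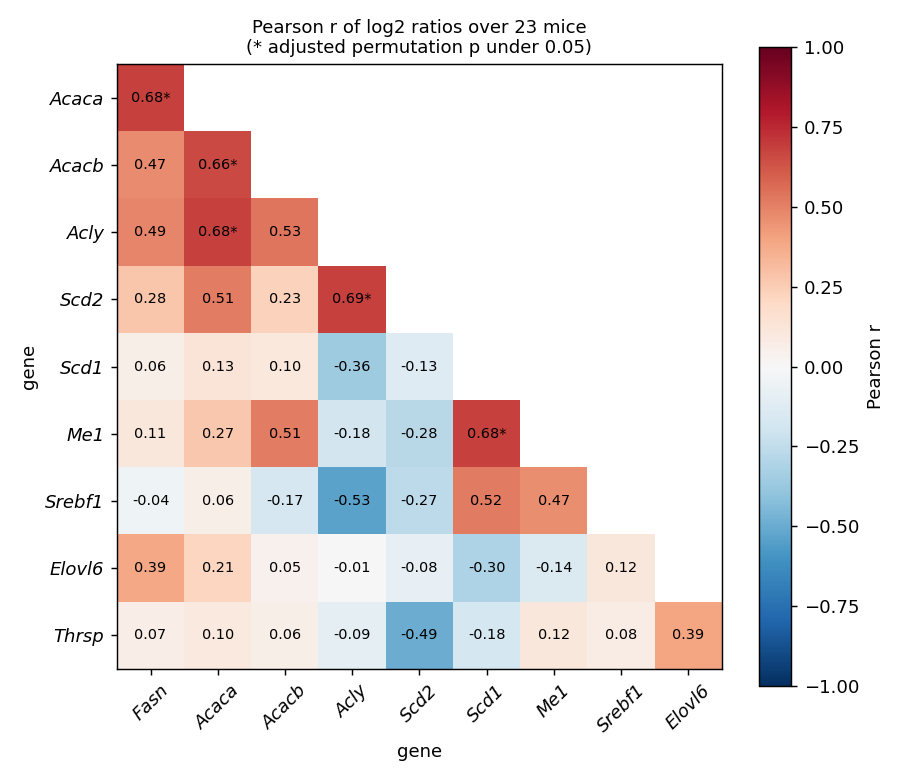
Pearson's r between the log2 ratios of each pair of genes over the 23 mice, red for positive and blue for negative, with an asterisk at the 5 pairs whose adjusted permutation p was under 0.05. The asterisks lie between Fasn, Acaca, Acacb, Acly and Scd2 in the upper corner and between Scd1 and Me1.

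The promoters of these groups are shown as context for the pairs that moved together, from RefSeq on build GRCm38.p6, which is not the build of the probe positions. RefSeq windows of 250 bases before to 50 after the start were matched for 8 of 10 members (11 windows); Scd1 and Scd2 had no entry. Fasn and Acly are printed because they belong to the same chain of pairs and hold different elements in the 250 bases before the start. Capitals mark CCAAT or GGGCGG on either strand in those 250 bases.
Fasn, chr11:120824548-120824797, minus strand: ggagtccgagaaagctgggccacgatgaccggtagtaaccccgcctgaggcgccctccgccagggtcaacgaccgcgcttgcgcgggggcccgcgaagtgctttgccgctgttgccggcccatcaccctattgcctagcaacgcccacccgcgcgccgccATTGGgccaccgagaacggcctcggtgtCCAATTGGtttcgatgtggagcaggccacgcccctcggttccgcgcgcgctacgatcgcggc
Acly, chr11:100528001-100528250, minus strand: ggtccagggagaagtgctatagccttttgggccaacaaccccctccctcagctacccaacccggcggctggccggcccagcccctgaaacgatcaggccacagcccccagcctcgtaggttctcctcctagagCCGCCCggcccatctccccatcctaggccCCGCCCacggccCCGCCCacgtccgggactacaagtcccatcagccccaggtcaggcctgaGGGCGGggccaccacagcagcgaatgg
The stretch of Fasn holds 3 matches to CCAAT, 2 of them overlapping in a single run, and 0 to GGGCGG, and the stretch of Acly holds 0 and 4. Beyond the printed stretch, the window of Acly also holds a CCAAT, 37 bases after the start.

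Over the full windows on both strands, CCAAT was found in 7 of the 11 member windows (6 members) and in 37.4% of all 32851 windows, and GGGCGG in 4 of 11 (3 members) and in 35.7%. The E-box CACGTG was in 0 of the 11 member windows (7.15% of all) and the sterol response element core TCACNCCAC in 0 (1.24%). With 11 windows and shares this low, finding 0 says little, and only these letters within these windows were searched. The antioxidant response element core TGACNNNGC was in 1 of the 11, that of Me1 (12.4% of all), across the start of transcription, in capitals in the 30 bases below (GRCm38.p6, chr9:86695901-86695930, minus strand).
Me1: gatgccgccgTGACTCAGCgcttctcgcgg
A match of letters describes the sequence and shows no binding.

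Each member was then set against the genes most like it over the 23 mice, as a description with no p, since these were picked for their r. Me1 had r = 0.882 (rho = 0.861) with Cyp4a32 and r = 0.88 (rho = 0.842) with Cyp4a10, which are fatty acid hydroxylases and near copies of each other, so their probes may read more than 1 gene. Within the slides the r of Me1 with Cyp4a10 was 0.913, 0.878 and 0.827, and within the diets 0.906 in HF-Q mice and 0.873 in HF mice. Cyp4a10 had a lowest value of -1.22, a median of 0.0345 and a highest of 0.854 in HF-Q mice, against -0.856, 0.279 and 1.48 in HF mice, so the diets overlapped widely. At the other end, Me1 was least like H2-DMb1, a chaperone of MHC class II (r = -0.863). Over lists put together after these values were seen, Me1 had r = 0.806 with the mean of 23 measured target genes of PPARA, the fatty acid receptor, r = -0.823 with 7 MHC class II genes, r = -0.564 with 19 targets of SREBP-2 and r = 0.259 with 14 targets of NRF2. The median of the MHC class II genes was 0.2 in HF-Q mice and -0.193 in HF mice, and that of the PPARA targets -0.165 in HF-Q mice and -0.0334 in HF mice; their part in the Me1 difference was not tested.

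Acly was most like Phldb1 (r = 0.937), the catalytic subunit of DNA polymerase epsilon Pole (r = 0.932) and the RNA polymerase I subunit Polr1a (r = 0.923). With the mean of 21 measured cell cycle genes, a list chosen after these values were seen, Acly had r = 0.875 over the 23 mice (rho = 0.85). That score ran from -0.553 to -0.0722 in the mice below 0 and from 0.099 to 0.406 in those above 0. With the mice cut at 0, r was 0.718 over the 9 mice below (3 HF-Q, 6 HF). It was 0.558 over the 14 mice above (8 HF-Q, 6 HF). Acly was at -0.183 to 0.178 in the lower mice and 0.0843 to 0.389 in the upper. Srebf1 was most like the adiponectin receptor Adipor2 (r = 0.913), Elmod3 (r = 0.898) and Miga2, a mitochondrial outer membrane protein (r = 0.891). It had r = 0.778 with the PPARA targets. Scd1 was most like Mylk3 (r = 0.825), had r = 0.808 with Camk2n2, and was least like the antimicrobial lectins Reg3g (r = -0.796) and Reg3b (r = -0.794).

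**Figure D4:**
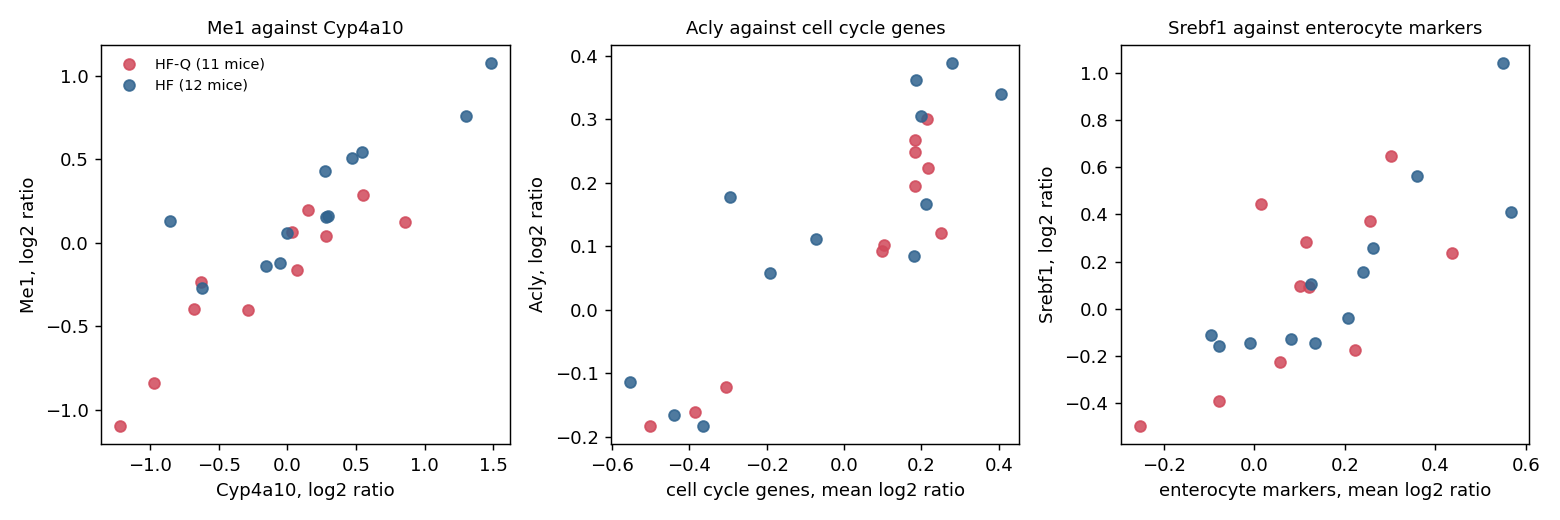
Each point is 1 mouse, HF-Q in red and HF in blue, with log2 ratios on both axes: Me1 against Cyp4a10, Acly against the mean of 21 cell cycle genes, and Srebf1 against the mean of 12 enterocyte markers. Me1 follows Cyp4a10 in mice of both diets (r = 0.88), and mice of both diets lie below and above 0 on the cell cycle axis.

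The remaining members had other companions. Acaca was most like the chromatin remodeller Smarca4 (r = 0.822) and Lzts2 (r = 0.821), and Acacb most like Chpf, of chondroitin synthesis (r = 0.823), Hoxb4 (r = 0.794) and the laminin chain Lamc1 (r = 0.792). Fasn was most like the mesenchymal factor Snai2 (r = 0.77), the potassium channel Kcnma1 (r = 0.738) and Unc13b (r = 0.737). Scd2 was most like Fgfbp1 (r = 0.829), Gm53 (r = 0.811) and the mitochondrial aldehyde dehydrogenase Aldh1b1 (r = 0.809), and had r = 0.576 with the targets of SREBP-2. Elovl6 was most like Ppp1r16b (r = 0.854), the ribosome-binding protein Rrbp1 (r = 0.835) and Gcc2 (r = 0.828). Thrsp had the lowest r with its nearest genes, Morn3 (r = 0.7), Clstn2 (r = 0.694) and Tmem189 (r = 0.653).

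Scrapings hold several cell types and parts of the gut, so the members were set against markers of these. Against 9 marker scores, 14 of 90 relations passed (15.6%), with permutation p adjusted over the 90, beside 10.1% of the relations of all other genes at the same absolute r of 0.538. That background is over all 9 scores together. How common such an r is for each score was not taken, so no single relation is shown to be unusual. Srebf1 went with enterocyte markers (r = 0.773, rho = 0.719, permutation adjusted p = 0.0009, the unadjusted p of 1e-05 being the smallest that the resamples can give), with proximal small intestine markers (r = 0.681, rho = 0.558, adjusted p = 0.00864) and with adipocyte markers (r = 0.687, rho = 0.645, adjusted p = 0.00864), a list that holds Pck1 and Lpl, which are not specific to fat. Acly went the other way with enterocyte markers (r = -0.65, rho = -0.558, permutation adjusted p = 0.0109) and proximal markers (r = -0.538, rho = -0.377, adjusted p = 0.0426). The enterocyte and proximal lists share Lct, Fabp1 and Apoa4. Relations of a gene with these scores are therefore not independent, though each is counted among the 90. Smooth muscle markers went with Acly (r = 0.769, rho = 0.749, permutation adjusted p = 0.00135), with Acaca (r = 0.65, rho = 0.66, adjusted p = 0.0109) and with Acacb (r = 0.597, rho = 0.649, adjusted p = 0.0193), which are 3 of the genes of the chain above.

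Regional markers went with Scd2 and Thrsp in opposite directions: distal small intestine markers had r = 0.619 with Scd2 (rho = 0.537, permutation adjusted p = 0.018) and r = -0.653 with Thrsp (rho = -0.682, adjusted p = 0.0109). Scd2 also had r = -0.724 with the 3 measured genes of the brown adipocyte list (rho = -0.666, permutation adjusted p = 0.0036), which were Cidea, Cox7a1 and Cpt1b, while Ucp1 was above background on 0 arrays. Scd1 (r = 0.605, rho = 0.629, adjusted p = 0.0191) and Elovl6 (r = -0.572, rho = -0.422, adjusted p = 0.0282) passed by permutation with the 6 measured hepatocyte markers, of which the defining Ahsg and Mup3 are not among the measured. By rho, 5 of the 14 relations did not pass: Scd2 with distal markers (permutation adjusted p = 0.0706), Acly with enterocyte markers (0.0562) and with proximal markers (0.272), Srebf1 with proximal markers (0.0562) and Elovl6 with hepatocyte markers (0.206). Without the 2 farthest mice the lowest absolute r was 0.341, and 2 of the 14 were under 0.5 in size, Elovl6 with hepatocyte markers (-0.346) and Acly with proximal markers (-0.341). Within the slides the signs held, down to -0.00894 for Elovl6 with hepatocyte markers, 0.201 for Srebf1 with proximal markers and -0.199 for Me1 with T cell markers. Fasn passed with none of the 9 scores, its r being between -0.31 and 0.314.

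**Figure D5:**
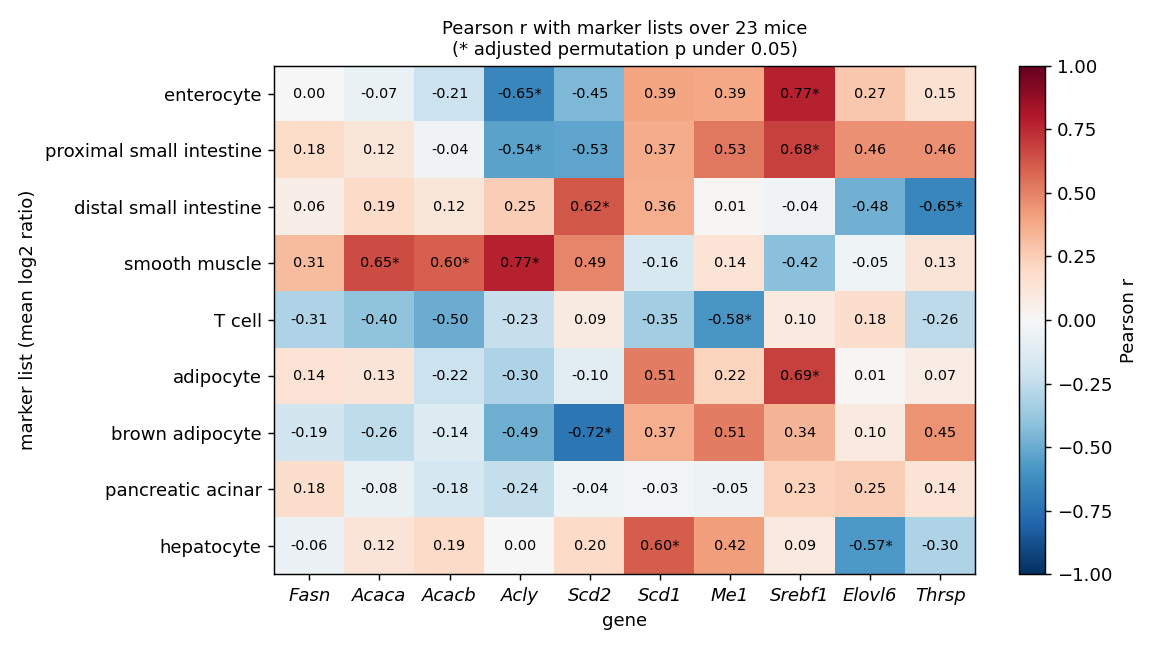
Pearson's r between each gene and the mean log2 ratio of each of 9 marker lists over the 23 mice, red for positive and blue for negative, with an asterisk at the 14 relations whose adjusted permutation p was under 0.05. Srebf1 is positive and Acly negative with enterocyte and proximal markers, and Acly, Acaca and Acacb are positive with smooth muscle markers.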

How the data were processed

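Small-intestinal RNA of 23 mice was measured on 2-colour arrays, 1 array per mouse. Per the file headers, the scans were quantified in Agilent Feature Extraction 10.7.3.1; the deposited spot and background columns are intensity values on a linear scale, not normalized between arrays; outlier, saturation and background marks are the software's own 0 or 1 values. The deposited log10 ratio of Cy5 over Cy3 had its background subtracted and its dyes normalized by the same software, per the file headers. The authors' table holds log2 values of 29141 probes with a common column median of 9.11; set against the scanner values it runs in the direction of Cy5 and against Cy3, with the method not given in the sources used here.

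From the intensities, limma 3.58.1 in R 4.3.3 applied normexp (offset 50) and loess within each array, with 3671 control spots at weight 0. Outlier spots were set to missing, spots of a probe averaged, and probes with Cy5 well above background in 50% or more of the HF-Q or of the HF arrays were kept (29249 of 55681). The diets (HF-Q minus HF) were compared by lmFit and eBayes, two-sided, with Benjamini-Hochberg adjustment over all 29249 probes and a threshold of 0.05. On simulated data with 29249 probes, 200 of them changed, the fit recovered 181 of those with a log2 change of 0.5 and 199 of those with a change of 1. The simulated noise was independent between probes, without the variation that probes of real arrays share through tissue content or slide. These counts check the code and do not give the power of the diet comparison. For genes, the brightest probe was used; names came from RefSeq (assembly GRCm38.p6) for 15146 of 21477 genes, and the rest kept the scanner file's name. Where probes lie in exons or untranslated regions was not analysed here. Correlations over mice used Python 3.11.15 with numpy 2.4.6, scipy 1.17.1 and 100000 resamples, and 586 missing values over all genes were filled with the gene's mean. Figures were drawn with matplotlib 3.10.9.

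Named were all members with every probe, the 2 highest and 2 lowest genes of each neighbouring list, the 3 genes most like each member, and the 5 highest and 3 lowest pairs of members; the genes least like Me1 and Scd1, and other relations of Srebf1, were named after their values were seen. Some of the genes most like a member are not reported here. The members and lists were chosen with earlier results of these data known. Alternatives were the slide or replicate number as a block, each slide alone, other background and normalization settings, the authors' values, other filters, array weights, marker scores as covariates and each mouse left out. Same-numbered mice of the diets did not deviate together in every pair: r was over 0.1 in 5 of 11 pairs (-0.333 to 0.417). Mice with different numbers were not compared in this way. The numbers were not taken as pairs in the main fit. The number of arrays limits the precision.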

Additional observations from a re-analysis of the deposited data

How the results depend on the processing

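No member probe, list gene or other probe passed under any of 16 alternatives or with any mouse left out. Me1 probe 1 stayed below 0 throughout (-0.648 to -0.407), as did probes 2 and 3, and Acacb (-0.287 to -0.0726). The unadjusted p of the 3 Me1 probes did not stay under 0.05 in every setting. With median centring limma gave 0.0432, 0.0945 and 0.106 for probes 1, 2 and 3. With a mouse left out, the highest unadjusted p in limma were 0.0122, 0.054 and 0.0638. With the replicate number as a block, Me1 probe 1 was -0.47 and the calls did not change. The small differences changed sign in places, and the cause was not tested. Median centring, which put the median of all genes at 0.0488, gave Acaca 0.0295 and 0.0339, Acly probe 1 0.0512 and Thrsp 0.00219. Cy5 alone gave Scd1 0.00451 and Thrsp 0.0164, the authors' log10 ratios Thrsp 0.0112, and the authors' log2 table Acly probe 1 0.0152. Array weights gave Fasn 0.0408, Acaca 0.0056 and 0.000725, and Thrsp 0.0119. Scores of acinar and of smooth muscle markers as covariates gave Fasn 0.0329, Acaca probe 1 0.00434 and Acly probe 1 0.0267. Within slide 1, Acly probe 2 was 0.0444, Scd1 0.0817, Elovl6 -0.0428 and Srebf1 0.359; within slide 2, Scd1 0.0164 and Elovl6 -0.107; within slide 3, Fasn 0.0965, Scd2 -0.286 and Thrsp 0.095. Leaving out each mouse gave -0.0614 to 0.0237 for Fasn, -0.128 to 0.01 for Srebf1 and -0.0518 to 0.0067 for Thrsp.

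Of the 45 pairs, 5 passed. The count was 1 within HF-Q and 3 within HF, where fewer mice enter, 15 with median centring and 11 with Spearman's rho, and 5 to 8 with a mouse left out, 8 without HF mouse 3 and without HF-Q mouse 4. All 5 kept their sign in each of these settings and passed with every mouse left out, with median centring and with rho; 3 of the 5 passed in the authors' log2 table. The r of Scd2 and Thrsp, which did not pass over all mice, was 0.0483 within HF-Q, and passed within HF (-0.873), in the authors' log2 table (-0.619) and without HF-Q mouse 3 (-0.566). That of Acly and Srebf1 passed with diet and slide means removed (-0.61) and in 6 settings with a mouse left out, and with median centring the r of Acly with Scd1 and Srebf1 were 0.0984 and 0.0875. Of the 90 relations with marker scores, 14 passed, against 26 with median centring and 9 with rho, both chosen after seeing the data. Probes not above background (Acaca 3 and 4, Acacb 2) give no measured difference.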
